A study of Mus musculus with 24 samples.

Results

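Lung RNA of mice on a docosahexaenoic acid (DHA) diet was compared with lung RNA of mice on a control diet. Both groups breathed ozone. The comparison held 12 of the 24 libraries of the series, 6 on the control diet and 6 on the DHA diet, chosen by their labels alone. The other 12 libraries came from mice on the same diets that breathed filtered air, 6 per diet, and were used for the shared estimate of spread and for the test of whether the diet difference depended on the exposure. All samples were bulk lung total RNA. The labels gave no strain, sex, age, ozone dose, diet composition, feeding time or time of collection, and did not say whether a library came from 1 mouse. P-values therefore measure the spread between libraries, which may be technical in part.

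DHA is a long-chain omega-3 fatty acid that is built into membrane phospholipids, and from it enzymes make oxygenated lipid mediators, among them resolvins and protectins, which are known for their part in the resolution of inflammation. Fatty acids of this class are also known to lower the activity of SREBP1, the transcription factor that drives fatty acid synthesis. Ozone is an oxidant gas that reacts with the lining fluid and lipids of the airways. It is known to injure ciliated cells and alveolar type 1 cells and to bring neutrophils and macrophages into the lung.

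The 12 ozone libraries held between 18053493 and 26156895 counts assigned to genes. The defining lung markers were high in each library. *Sftpc*, the surfactant protein C gene of alveolar type 2 cells, lay between 21391 and 27525 CPM, the count scaled to library size, here after TMM scaling between libraries. Markers of neighbouring tissues were present in both groups. *Myh6* of heart muscle had 484 ± 97.7 CPM (SD, n = 6) on the control diet and 476 ± 78.0 on the DHA diet, and *Adipoq* of fat had 7.83 ± 2.80 and 7.51 ± 1.97. All 14 skeletal muscle markers had a negative log2 fold change for DHA against control diet, with a median of -0.361. Of these, 4 had an unadjusted p under 0.05, beside 7.03% of all genes tested that were lower at that threshold. Leaving out each ozone library in turn gave 1 to 8. The 6 markers of thyroid, thymus and oesophagus had a median of 0.344. The part of these tissues in the results was not tested. DHA-diet library 1 stood apart. Its correlation with the mean of its own group was 0.9866 where the other 11 ranged from 0.9910 to 0.9949, and it had a score of 48.1 on a first principal component that held 22.9% of the variance. *Scgb1a1*, the major club cell secretory gene, took 5.51% of its counts and 7.62% to 12.3% in the other 11. Control-diet library 1 was next, with mesothelial markers at a mean of 4.85 log2 CPM against 6.18 to 6.39 in the other 5 control-diet libraries. Several lists that moved with DHA-diet library 1 are given below with and without it, but not all. Stressed and transitional epithelium, not described below, had 6 of 20 members higher at an unadjusted p under 0.05 and a median of 0.194. Without that library these were 2 and 0.0533.

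No gene passed the test for diet after ozone. Of 16153 genes tested with edgeR's quasi-likelihood test, 0 were higher and 0 lower on the DHA diet at an adjusted p under 0.05, and the smallest adjusted p was 0.0793. At an unadjusted p under 0.05 there were 2260 genes, of which 1124 (6.96% of those tested) were higher and 1136 (7.03%) lower on the DHA diet. At an adjusted p under 0.10 there were 22 genes, or 0.136%, of which 8 (0.0495%) were higher and 14 (0.0867%) lower. The 6 DHA-diet values lay wholly above or below the 6 control-diet values for 134 genes, 0.830% of those tested, with 54 (0.334%) above and 80 (0.495%) below. The differences were small: the median absolute log2 fold change was 0.0841, as large as the median standard error of 0.0841, and 38 genes differed by at least 1 on the log2 scale, of which 4 reached a mean of 5 CPM in either group (*Clca1*, *Fer1l6* and *Adra2a* lower and *Alas2* higher on the DHA diet).

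The count of 0 depended on the test and on single libraries. DESeq2 called 38 genes higher and 37 lower, and limma-voom, which weights each library by its quality, called 8 and 11. Without DHA-diet ozone library 2, edgeR called 71 genes higher and 73 lower. Without DHA-diet library 5 it called 1 and 6, without control-diet library 5 it called 0 and 7, and without control-diet library 1 it called 1 in each direction. Without any other single ozone library it called 0 in both directions, as it did without DHA-diet libraries 1 and 2 together. There were 18 genes called by DESeq2, by limma-voom and by edgeR without DHA-diet library 2, from the 75, 19 and 144 that each called.

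**Figure D1:**
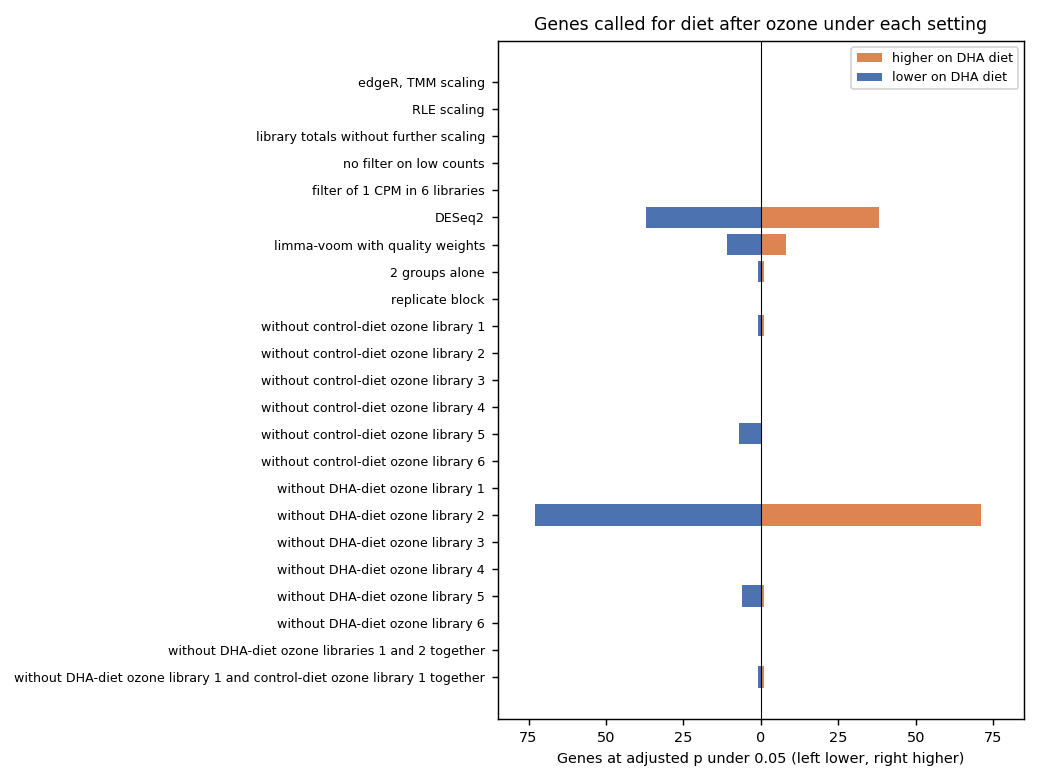
Number of genes at an adjusted p under 0.05 for DHA against control diet after ozone (horizontal axis, higher to the right and lower to the left) under each setting (vertical axis). The edgeR fit with TMM scaling has no bar, while DESeq2 has 38 and 37 and the fit without DHA-diet library 2 has 71 and 73.

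The 20 genes of smallest p, among those that reached a mean of 5 CPM in either group, are given here as values that did not pass the test. Their adjusted p-values in edgeR's quasi-likelihood test ran from 0.0793 to 0.106, and the 18 genes called in all 3 of the fits above included 13 of them, all but *Clca1*, *Adra2a*, *Fer1l6*, *Rgs18*, *Maged2*, *Fgfr1* and *Bmpr1b*.

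Genes of the interferon system and of mucus were among those with lower values on the DHA diet. *Usp18*, an interferon-induced protease that removes ISG15 from proteins, lies on chromosome 6 from 121222865 to 121247877 (mm39, as deposited). Its lowest, median and highest values were 27.7, 33.0 and 39.7 CPM on the control diet and 19.9, 24.3 and 29.0 CPM on the DHA diet. The ranges overlapped, and the log2 fold change was -0.43 ± 0.083 (SE, adjusted p = 0.0793). *Eif2ak2*, the kinase PKR that senses double-stranded RNA, had 31.5, 34.0 and 36.9 CPM on the control diet and 23.5, 26.7 and 29.8 CPM on the DHA diet. All 6 DHA-diet libraries lay below all 6 control-diet libraries, by -0.34 ± 0.065 on the log2 scale (adjusted p = 0.0793).

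*Clca1*, a secreted protein of goblet cells that is packed with mucins (chromosome 3, 144710298 to 144738538), had the largest difference of the 20. The control-diet libraries 1 to 6 had 0.309, 11.98, 11.1, 44.9, 2.13 and 88.3 CPM. The DHA-diet libraries had a lowest value of 0.611, a median of 1.19 and a highest of 2.61 CPM. Control-diet library 1 lay below all 6 DHA-diet libraries and control-diet library 5 lay in their range. The other 4 lay above it, so that the difference rested on 4 libraries. The log2 fold change was -4.11 ± 0.80 (adjusted p = 0.0793), and -3.21 without control-diet library 6. *Fer1l6*, a ferlin family membrane protein, had a like order of libraries, with 2.12, 5.48 and 19.5 CPM on the control diet and 0.569, 1.505 and 2.78 CPM on the DHA diet (log2 fold change -2.21 ± 0.46). Its highest control-diet value was also in library 6.

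The other genes with lower values had smaller differences and less spread. *Adra2a*, the alpha-2A adrenergic receptor, had a median of 5.16 CPM on the control diet and 2.92 on the DHA diet (log2 fold change -1.09 ± 0.22). *Cd38*, an NAD-consuming ectoenzyme, had 40.0 to 46.8 CPM on the control diet and 28.8 to 38.4 on the DHA diet, with no overlap (-0.36 ± 0.073). *Bmpr1b*, a type 1 receptor for bone morphogenetic proteins, also had no overlap, with 21.5 to 25.2 against 14.9 to 20.1 CPM (-0.39 ± 0.088). *Tmprss2*, an epithelial membrane serine protease, had 127 to 137 against 97.8 to 125 CPM (-0.22 ± 0.050). The deubiquitinase gene *Yod1* had 6.60 to 8.59 against 4.62 to 6.08 CPM (-0.47 ± 0.095). *Lrrc18* (-0.64 ± 0.14) and *Cracr2a*, a calcium-binding regulator of store-operated calcium entry (-0.30 ± 0.065), had ranges that overlapped.

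Among the genes with higher values on the DHA diet, *Npr3*, the clearance receptor for natriuretic peptides, had 40.5, 48.4 and 60.8 CPM as lowest, median and highest values on the control diet and 65.0, 80.4 and 82.7 on the DHA diet. Every DHA-diet library lay above every control-diet library (log2 fold change 0.67 ± 0.14, adjusted p = 0.0795). *Tnfrsf12a*, the receptor for the cytokine TWEAK, had 24.2 to 31.8 CPM on the control diet and 33.4 to 80.3 on the DHA diet. The highest value was that of DHA-diet library 1, without which the log2 fold change of 0.70 ± 0.16 was 0.467. *Cdc42ep4*, an effector of the small GTPase CDC42, had 118 to 133 CPM and 139 to 189 CPM, again with no overlap (0.32 ± 0.061).

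*Fgfr1*, a fibroblast growth factor receptor, had 66.3 to 71.3 CPM on the control diet and 74.7 to 82.9 on the DHA diet (0.17 ± 0.038). *Maged2* had 44.2 to 50.4 and 52.5 to 56.0 CPM (0.21 ± 0.045), and *Rgs18*, a regulator of G protein signalling in platelets and leukocytes, had 4.32 to 6.03 and 6.18 to 9.71 CPM (0.58 ± 0.12). These ranges did not overlap. The ranges of *Atf5*, a stress-response transcription factor (0.33 ± 0.067), *Cavin3*, a coat protein of caveolae (0.29 ± 0.063), and *Nr1h3*, the oxysterol receptor LXR alpha (0.35 ± 0.079), did overlap. In all, 11 of the 20 had no overlap between the groups. These genes were taken for their small p-values, so that a high share without overlap follows from the choice.

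**Figure D2:**
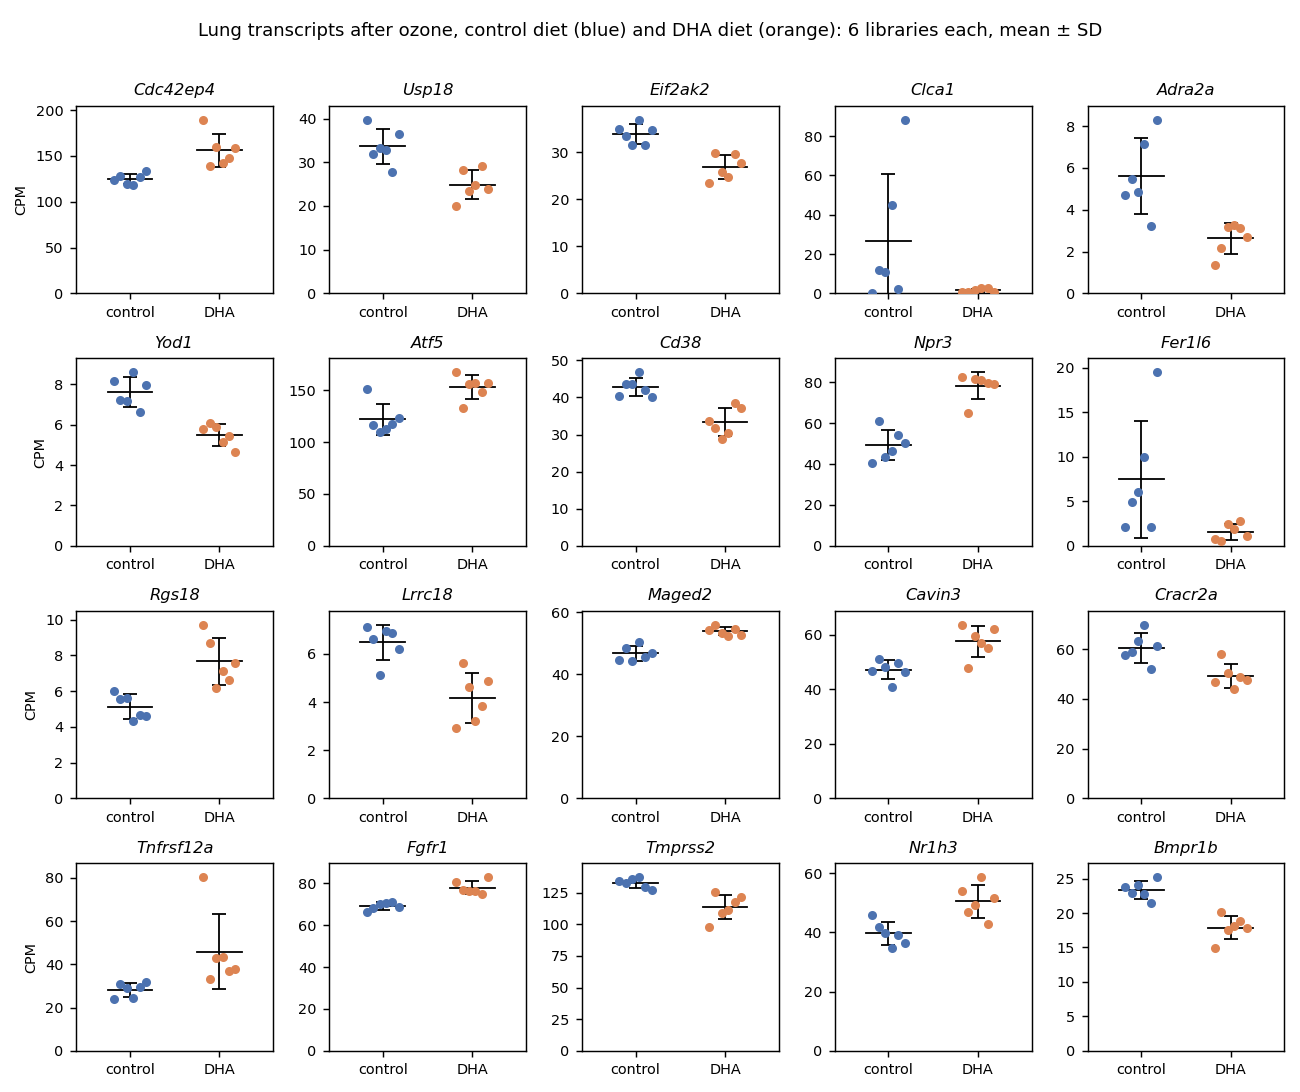
Expression in CPM (vertical axes, each from 0) of the 20 genes of smallest p in the 6 control-diet (blue) and 6 DHA-diet (orange) ozone libraries, in library order, with the mean (line) and SD (bar; cut at 0 for *Clca1*). *Npr3* shows all orange points above all blue points, while the blue points of *Clca1* run from 0.309 to 88.3 CPM.

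Lists of genes with a shared role were described by how many members had an unadjusted p under 0.05, beside the 6.96% of all genes that were higher and 7.03% that were lower at that threshold. No member of any of the 56 lists passed the adjusted threshold. The lists were written with earlier results of these data known, so their choice may have raised such shares. Members named below other than those most abundant in their list were chosen after their values were seen. In bulk RNA, fewer cells of a type and less RNA per cell cannot be told apart.

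**Figure D3:**
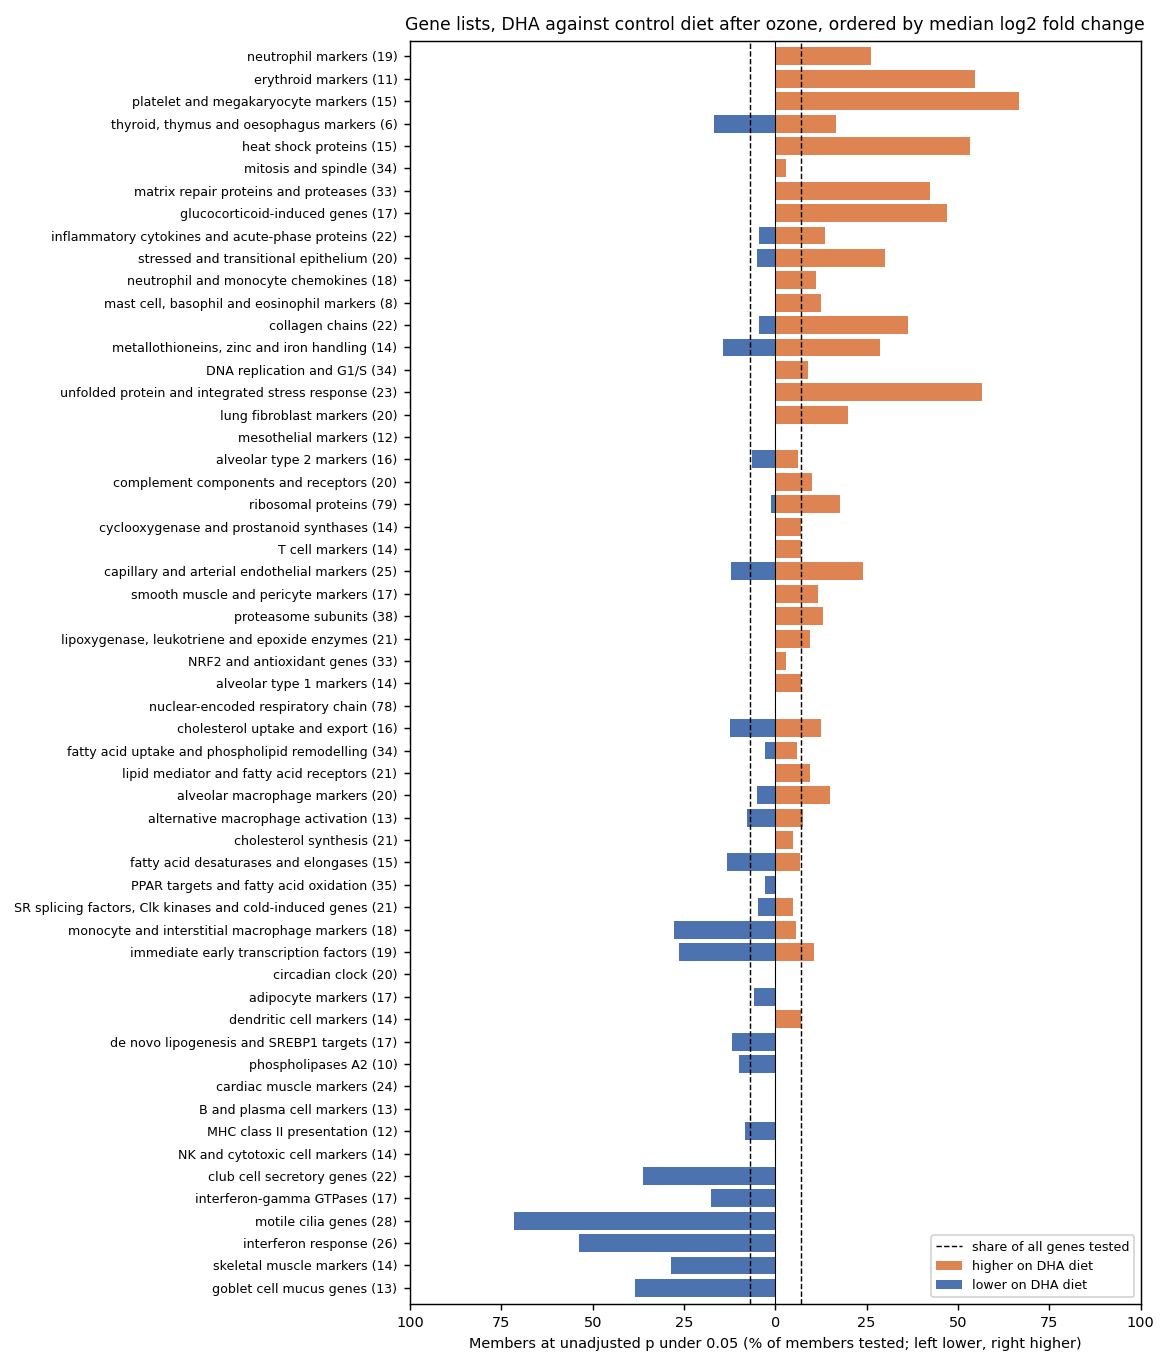
Percent of the tested members of each list (number tested in brackets) at an unadjusted p under 0.05, higher on the DHA diet to the right (orange) and lower to the left (blue), ordered by median log2 fold change. Dashed lines mark the shares over all genes, 6.96% and 7.03%; the motile cilia list reaches farthest to the left and the platelet list farthest to the right.

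Interferon response genes had lower values on the DHA diet. All 26 members had a negative log2 fold change, with a median of -0.30 beside 0.00536 over all genes, and 14 had an unadjusted p under 0.05. The mean over the list was 3.94 to 4.17 log2 CPM in the control-diet libraries and 3.55 to 3.99 in the DHA-diet libraries, where library 5 was the highest and alone lay in the control range. *Cmpk2*, a mitochondrial nucleotide kinase, had 29.3 ± 1.64 CPM on the control diet and 24.4 ± 2.57 on the DHA diet (SD, n = 6). *Ifit1*, which binds foreign RNA, had 16.6 to 22.4 CPM and 9.09 to 16.1 CPM with no overlap. Leaving out each ozone library in turn, 11 to 15 members had an unadjusted p under 0.05, and the median ran from -0.345 to -0.252. Without library 1 of both diets these were 9 and -0.234. The 17 GTPases and related genes induced by interferon gamma were also all negative, with a median of -0.221 and 3 (*Gbp3*, *Gbp9* and *Iigp1*) at an unadjusted p under 0.05. Their most abundant member *Irf1* had 115 ± 12.5 and 114 ± 11.3 CPM.

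The interferon-stimulated response element, a short motif known from promoters of interferon-induced genes, was sought on either strand as GAAA, any 2 bases and GAAA again in promoters of 250 bases before to 50 bases after the start, from RefSeq on GRCm38.p6. It was found in 3.44% of 32851 promoters and in 3.83% of the 12718 tested genes with a promoter in the table. Of the 26 interferon list genes 18 had a promoter there and 10 held the motif. Of the 9 with an unadjusted p under 0.05 and a promoter, 4 held it. A match is a description of the letters, not a measured site. Stretches from 3 of these genes with lower values on the DHA diet are shown as examples that hold more than 1 match. Other list members with more than 1 match are not shown, and matches may overlap. Capitals mark the matches, which in *Ifit1* read on the opposite strand, and each is written on the strand of its gene. The positions are chr19:34640755-34640843 on the plus strand for *Ifit1*, chr4:156200845-156200926 on the minus strand for *Isg15* and chr5:120907526-120907575 on the minus strand for *Oas1a*.
Ifit1: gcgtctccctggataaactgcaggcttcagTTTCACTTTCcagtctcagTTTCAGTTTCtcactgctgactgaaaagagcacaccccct
Isg15: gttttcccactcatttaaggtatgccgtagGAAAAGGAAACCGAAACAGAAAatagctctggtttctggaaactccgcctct
Oas1a: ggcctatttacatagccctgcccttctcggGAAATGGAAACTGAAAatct
The first base of the matches lies 104 and 85 bases before the start of *Ifit1*, 78, 72 and 66 before that of *Isg15*, and 20 and 14 before that of *Oas1a*. The log2 fold changes of the 3 genes on the DHA diet were -0.43 ± 0.13, -0.35 ± 0.13 and -0.55 ± 0.16 (SE), with unadjusted p-values of 0.0024, 0.0147 and 0.00153 and adjusted p-values of 0.175, 0.258 and 0.17 in edgeR's test.

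Genes of the conducting airway epithelium also had lower values on the DHA diet, to an extent that moved with DHA-diet library 1. Of 28 genes of motile cilia tested, 27 were negative and 20 had an unadjusted p under 0.05, with a median log2 fold change of -0.286. *Tekt2*, a protein of ciliary microtubules, had 19.3 to 21.9 CPM on the control diet. On the DHA diet it had 9.98 CPM in library 1 and 16.7 to 18.6 in the other 5, so that the groups did not overlap with or without that library. *Cfap43*, another axonemal protein, had 67.2 to 76.3 CPM on the control diet and 30.8 to 75.8 on the DHA diet. Its highest DHA-diet value, in library 2, lay in the control range. The list mean was 4.80 log2 CPM in DHA-diet library 1, 5.30 to 5.64 in the other DHA-diet libraries and 5.46 to 5.79 on the control diet. Without DHA-diet library 1, 10 members had an unadjusted p under 0.05 and the median was -0.204, and without that library and control-diet library 1 these were 6 and -0.168.

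Club cells are the secretory and detoxifying cells of small airways. Of 22 of their genes 21 were negative and 8 had an unadjusted p under 0.05, with a median of -0.212. *Cyp2f2*, a cytochrome P450 of these cells, had 5755 to 7598 CPM on the control diet, 2681 CPM in DHA-diet library 1 and 4987 to 6350 in the other 5. Without that library 3 members had an unadjusted p under 0.05 and the median was -0.105, and without library 1 of both diets 1 member (4.55%, below the 7.03% of all genes) and -0.0692. Without DHA-diet library 2 they were 14 members and -0.28. Goblet cell mucus genes had 12 of 13 negative, 5 with an unadjusted p under 0.05 (*Clca1*, *Tff2*, *Muc5ac*, *Fcgbp* and *Galnt6*) and a median of -0.389, which was -0.336 with 4 members without DHA-diet library 1. *Muc5b*, the constitutive airway mucin, had 147 to 249 CPM on the control diet and 105 to 170 on the DHA diet (unadjusted p = 0.0527). *Muc5ac*, the inducible mucin, had 4.28 to 8.45 and 3.31 to 4.84 CPM, and *Tff2*, a trefoil peptide, 14.2 to 29.0 and 8.90 to 19.6 CPM. Control-diet libraries 4 and 6, the highest for *Clca1*, were also the highest for *Muc5ac* and *Muc5b*.

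**Figure D4:**
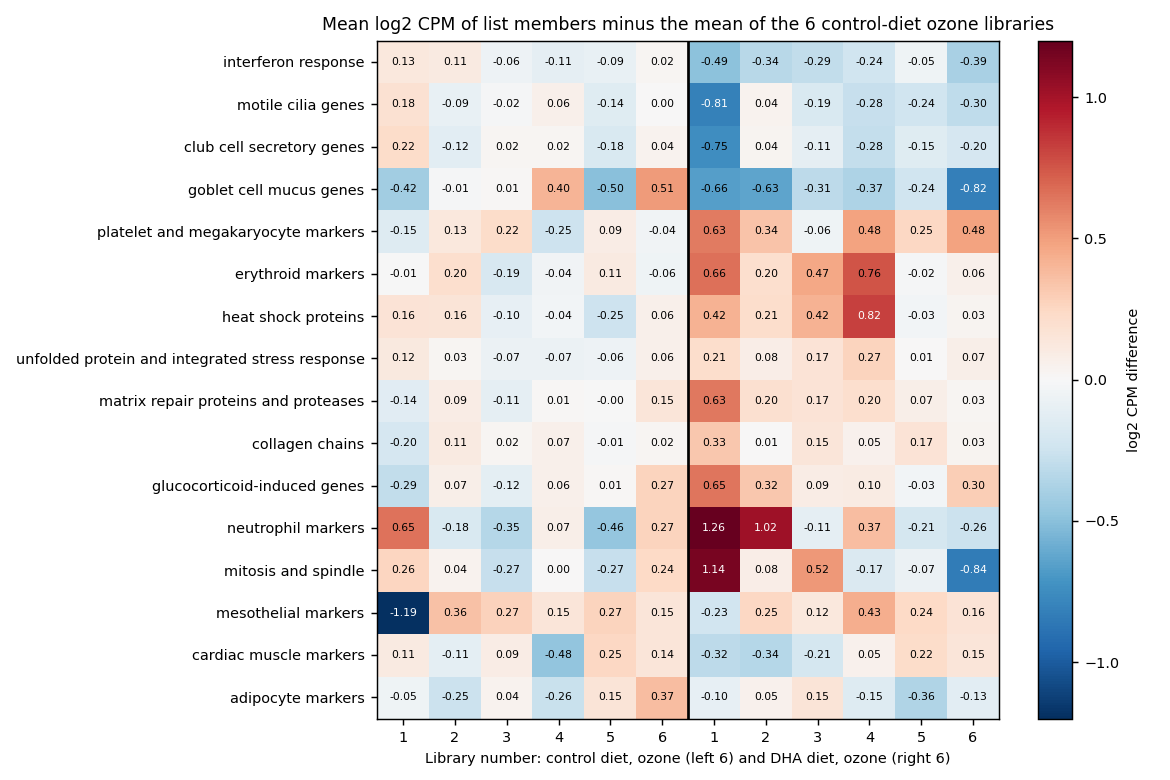
Mean log2 CPM of each list (rows) in each ozone library (columns, control diet left, DHA diet right), minus the mean of the 6 control-diet libraries; red is higher and blue lower. DHA-diet library 1 carries the lowest cilia and club cell values and the highest neutrophil, mitosis and matrix values, while the interferon row is below 0 in each DHA-diet library.

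Markers of platelets and of red cells had higher values on the DHA diet. All 15 platelet and megakaryocyte genes were positive, with a median log2 fold change of 0.396 and 10 at an unadjusted p under 0.05. *Pf4*, the platelet chemokine, had 15.1 to 20.97 CPM on the control diet and 18.8 to 28.1 on the DHA diet. *Tubb1*, the tubulin of platelets, had 9.65 to 15.3 and 11.8 to 25.5 CPM, with DHA-diet library 3 alone in the control range. *Rgs18*, above, is also a platelet gene. Without DHA-diet library 1, 5 members had an unadjusted p under 0.05 and the median was 0.324. *Itgb3*, the most abundant member with *Nrgn*, had 38.1 ± 3.51 and 38.6 ± 4.72 CPM.

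Of 11 erythroid genes, 9 were positive and 6 had an unadjusted p under 0.05, with a median of 0.426. *Alas2*, which starts haem synthesis in red cell precursors, had 47.5 to 93.6 CPM on the control diet. On the DHA diet it had 194 CPM in library 1, 127 in library 3 and 276 in library 4, and 71.96 to 85.8 in the other 3, which lay in the control range. *Bpgm*, which makes bisphosphoglycerate in red cells, had a median of 70.2 and of 87.0 CPM. Leaving out each ozone library in turn left 6 members higher at an unadjusted p under 0.05 each time, with medians from 0.302 to 0.476. The amount of blood left in the lungs is not given in the labels, and its part in these values was not tested.

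Chaperone genes had higher values on the DHA diet. All 15 heat shock genes were positive, with a median log2 fold change of 0.312 and 8 at an unadjusted p under 0.05. *Hspa8*, the constitutive HSP70 chaperone, had 356 to 578 CPM on the control diet and 430 to 816 on the DHA diet. *Hsp90ab1*, a cytosolic HSP90, had 1429 to 1814 and 1497 to 2343 CPM. DHA-diet library 4 had the highest values of both, and without it 1 member had an unadjusted p under 0.05 and the list median was 0.221. Of 23 genes of the unfolded protein and integrated stress response, 21 were positive and 13 had an unadjusted p under 0.05, with a median of 0.112. *Hspa5*, the chaperone BiP of the endoplasmic reticulum, had 475 to 579 CPM on the control diet and 522 to 785 on the DHA diet, with the highest values in libraries 1 and 4. Leaving out each ozone library in turn gave 6 to 15 members at that threshold and medians from 0.0847 to 0.184.

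Matrix genes had higher values on the DHA diet, most of all in DHA-diet library 1. Of 33 matrix repair proteins and proteases, 27 were positive and 14 had an unadjusted p under 0.05, with a median log2 fold change of 0.214. *Spp1*, osteopontin, had 39.9 to 63.0 CPM on the control diet, 217 CPM in DHA-diet library 1 and 69.96 to 79.96 in the other 5, with no overlap between the groups. *Sparc*, a collagen-binding matricellular protein, had 1388 ± 95.3 and 1535 ± 107 CPM, and *Timp3*, an inhibitor of metalloproteases, 616 ± 27.6 and 680 ± 60.5 CPM. Without DHA-diet library 1 the list had 7 members at an unadjusted p under 0.05 and a median of 0.122, and without library 1 of both diets it had 4 higher, 1 lower and a median of 0.101. Of 22 collagen chains 8 were higher and 1 (*Col4a6*) lower at that threshold, with a median of 0.156, which was 0.087 without the same library. Without library 1 of both diets 3 were higher and 3 lower, with a median of 0.0668. *Col4a1*, a basement membrane chain, had 375 to 424 CPM on the control diet and 404 to 758 on the DHA diet, and *Col5a3* had 3.65 to 4.58 and 4.64 to 6.37 CPM, with no overlap.

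Genes that glucocorticoid hormones induce were positive in 14 of 17 cases, with 8 at an unadjusted p under 0.05 and a median of 0.209. *Fkbp5*, a co-chaperone of the glucocorticoid receptor, had 19.3, 24.3 and 34.0 CPM as lowest, median and highest values on the control diet and 29.6, 37.8 and 69.3 on the DHA diet. The highest value was in DHA-diet library 1, without which 4 members had an unadjusted p under 0.05 and the list median was 0.148. *Dusp1*, the most abundant member, had 228 ± 29.4 and 207 ± 50.03 CPM.

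Few inflammatory genes had a small p. Of 22 cytokines and acute-phase proteins 3 were higher (*Tnf*, *Lcn2* and *Timp1*) and 1 lower (*Lbp*) at an unadjusted p under 0.05, with a median log2 fold change of 0.199. Without DHA-diet library 1 none was at that threshold and the median was 0.0413, and leaving out each ozone library in turn gave 0 to 7 higher, the most without DHA-diet library 6. Of 18 chemokines 2 were higher (*Cxcl3* and *Ccl3*), with a median of 0.167, and 1 was higher without DHA-diet library 1. The abundant acute-phase genes *Hp* (haptoglobin) and *Cp* (ceruloplasmin) had log2 fold changes of -0.15 ± 0.083 and -0.17 ± 0.10. Neutrophil markers had a median of 0.552 with 5 of 19 higher (*S100a9*, *Cxcr2*, *Csf3r*, *Mmp9* and *Clec4d*), and their level was highest in DHA-diet libraries 1 and 2. *S100a9*, a calcium-binding protein of neutrophils, had 18.1 to 66.6 CPM on the control diet. It had 107 and 141 CPM in DHA-diet libraries 1 and 2 and 24.3 to 39.5 in the other 4, all within the control range. Without either of these libraries 0 members had an unadjusted p under 0.05, and without both the list median was -0.0739.

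Of 18 markers of monocytes and interstitial macrophages 5 were lower (*Csf1r*, *Cx3cr1*, *Ccr2*, *Treml4* and *Nr4a1*) and 1, *Pf4*, was higher, and without DHA-diet library 1 there were 3 lower and 2 higher. *Csf1r*, the receptor for macrophage colony-stimulating factor, had 89.3 to 108 CPM on the control diet and 73.3 to 89.7 on the DHA diet. *Cx3cr1*, the fractalkine receptor, had 14.9 to 18.4 and 9.59 to 16.2 CPM. Alveolar macrophage markers had 3 of 20 higher (*Marco*, *Car4* and *Lpl*) and 1 lower (*Fabp5*), with a median of -0.00037, and 1 higher and 1 lower without DHA-diet library 1. Without DHA-diet library 2 they had 1 higher and 4 lower. Mitosis genes were positive in 32 of 34 cases with a median of 0.259, yet 1, *Mad2l1*, had an unadjusted p under 0.05. The list mean of the DHA-diet libraries ran from 2.00 log2 CPM in library 6 to 3.99 in library 1, on both sides of the control range of 2.57 to 3.11. The direction rested on DHA-diet library 1, without which 13 members were positive and 21 negative, with a median of -0.0321 and 0 at an unadjusted p under 0.05. Without DHA-diet library 6, the lowest, 15 members were higher at that threshold and the median was 0.403.

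Lists of lipid synthesis and oxidation had counts near the background shares of 6.96% and 7.03%. Of 15 fatty acid desaturases and elongases 1 was higher (*Elovl7*) and 2 were lower (*Fads6* and *Elovl6*) at an unadjusted p under 0.05, with a median log2 fold change of -0.0149. *Scd1*, the stearoyl-CoA desaturase, had 948 to 2237 CPM on the control diet and 854 to 1484 on the DHA diet, at -0.30 ± 0.18 (SE, adjusted p = 0.468 in edgeR's test). Lipogenic genes driven by SREBP1 were negative in 15 of 17 cases, with 2 (*Gpam* and *Elovl6*) at an unadjusted p under 0.05 and a median of -0.0738. *Fasn*, fatty acid synthase, was at -0.09 ± 0.10 and *Gpam*, the first enzyme of glycerolipid synthesis, at -0.17 ± 0.053. Cholesterol synthesis had 1 of 21 higher (*Pmvk*), and among 35 targets of PPAR and genes of fatty acid oxidation 1 was lower, *Ppargc1a* with 8.45 to 10.7 and 7.47 to 9.42 CPM.

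Of 16 genes of cholesterol uptake, export and its control, 2 were higher and 2 lower at an unadjusted p under 0.05, with 8 positive, 8 negative and a median of 0.0217. *Nr1h3* had 34.8 to 45.8 CPM on the control diet and 42.6 to 58.6 on the DHA diet, and *Lrp1*, a lipoprotein receptor, had 241 to 281 and 282 to 327 CPM with no overlap. *Abca1*, an exporter whose gene is a known target of LXR, had 45.0 to 63.0 and 37.9 to 48.5 CPM. Enzymes that release and oxidise polyunsaturated fatty acids also lay near the background. At an unadjusted p under 0.05 1 of 10 phospholipases A2 was lower (*Pla2g4c*), 1 of 14 cyclooxygenase and prostanoid genes was higher (*Ptges*), and 2 of 21 lipoxygenase, leukotriene and epoxide genes were higher (*Dpep1* and *Alox12*). *Dpep1*, a dipeptidase that converts leukotriene D4, had 73.3 to 93.4 and 90.3 to 139 CPM. Of 21 lipid mediator receptors 2 were higher. These were *Ptger4*, a prostaglandin E2 receptor, with 5.37 to 7.16 and 7.05 to 9.08 CPM, and *Cmklr1*, a receptor for chemerin and resolvin E1, with 66.9 to 80.9 and 67.0 to 127 CPM.

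In filtered air, where no library was shared with the ozone comparison, the same diets differed for 186 genes at an adjusted p under 0.05, 1.15% of those tested, of which 117 (0.724%) were higher and 69 (0.427%) lower on the DHA diet. After ozone 166 of the 186 had the same sign, or 89.2%, beside 64.1% of all genes, and 77 of them also had an unadjusted p under 0.05. Across all 16153 genes tested, the diet log2 fold changes in air and after ozone had a Pearson correlation of 0.322. Across the 12401 genes that reached 5 CPM it was 0.489. Both are given as a description since genes are not independent replicates. The median absolute log2 fold change was 0.0883 in air and 0.0841 after ozone. A test of the difference itself, the diet by exposure term in edgeR, called 0 genes, with a smallest adjusted p of 0.166 and 988 genes, or 6.12%, at an unadjusted p under 0.05. DESeq2 called 5 genes for this term and limma-voom 2. A count of 186 in air and 0 after ozone thus does not by itself show a difference between the exposures.

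**Figure D5:**
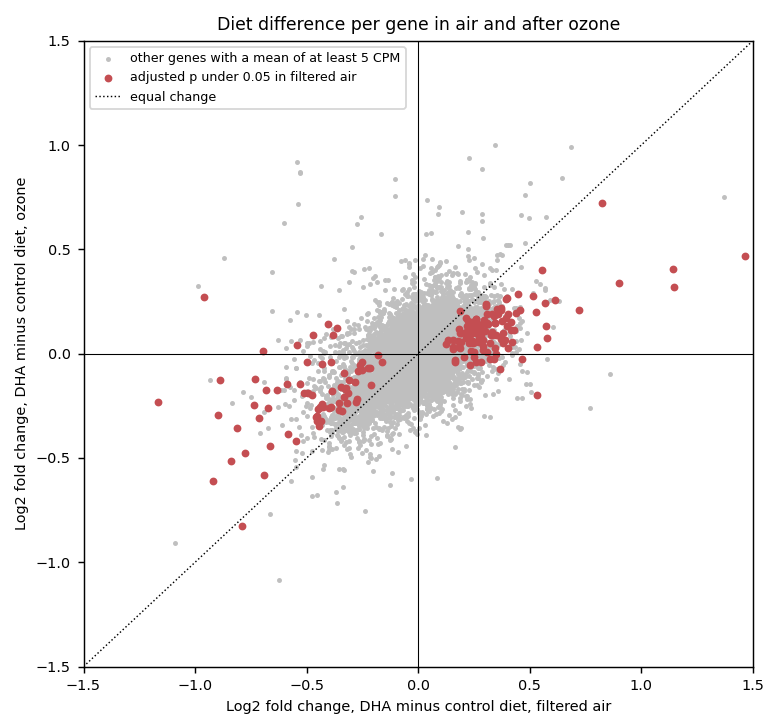
Log2 fold change of DHA against control diet after ozone (vertical) against that in filtered air (horizontal), for genes that reached a mean of 5 CPM; the 186 genes called in air are red and 2 genes lie outside the range shown. Of the 186 red points 166 lie in the quadrants of equal sign.

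Of the 56 lists 14 had a negative median log2 fold change in both exposures, and in 7 of these both medians were at or below -0.1. These were the interferon response (-0.30 after ozone and -0.265 in air, with *Cmpk2* among those called lower in air), the interferon gamma genes (-0.221 and -0.257), motile cilia (-0.286 and -0.276, with *Tekt2* called lower in air), goblet cell (-0.389 and -0.335) and club cell genes (-0.212 and -0.106), skeletal muscle markers (-0.361 and -0.407) and markers of natural killer cells (-0.18 and -0.215). Positive medians in both exposures were found for 24 lists, with both at or above 0.1 for 6: heat shock, mitosis, glucocorticoid-induced, collagen, matrix repair and lung fibroblast genes. Some of these groupings rested on DHA-diet ozone library 1. Without it the medians after ozone were -0.0321 for mitosis, 0.087 for collagen and 0.0519 for lung fibroblast genes. That of natural killer cell markers was -0.0796. Lists with unlike medians included those of platelets and neutrophils. Platelet genes were at -0.14 in air and 0.396 after ozone, with 8 of 15 members at an unadjusted p under 0.05 for the interaction. Over all genes this share was 6.12%. Neutrophil markers were at -0.244 and 0.552, with 8 of 19. Without DHA-diet ozone libraries 1 and 2 the neutrophil median after ozone was -0.0739. The interaction counts of lists were made with all libraries only. Smooth muscle and pericyte genes were at -0.258 in air and 0.0454 after ozone, with 9 of 17. Some markers of neighbouring tissues also had unlike medians, while those of skeletal muscle, above, had like ones. Markers of thyroid, thymus and oesophagus were at -0.246 in air and 0.344 after ozone, with 2 of 6. Heart muscle markers were at -0.411 in air and -0.0837 after ozone, with 3 of 24. Fat markers were at -0.422 and -0.0634, with 7 of 17. The part of these tissues in the smooth muscle values was not tested. *Acta2*, smooth muscle actin, had a log2 fold change of -0.40 in air (adjusted p = 0.0212) and 0.14 ± 0.086 after ozone. Clock genes were at 0.282 in air, with *Per2*, *Cry1*, *Nr1d2* and *Bhlhe40* called higher, and -0.0511 after ozone, with 11 of 20 for the interaction, and alveolar type 2 markers at 0.255, with 6 of 16 called, and 0.0738. *Sftpc* had a log2 fold change of 0.37 in air (adjusted p = 0.0338) and 0.15 ± 0.088 after ozone (adjusted p = 0.438). No interaction of any of these genes passed the adjusted threshold in edgeR.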

How the data were processed

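Lung total RNA was sequenced from 24 libraries in 4 groups of 6. The deposited table holds whole-number read counts for each gene. Per the submitters' processing notes, reads were handled in Partek, aligned with STAR to mm39 and counted with HTSeq. Their versions, the annotation and whether strand was used were not stated in these sources, so overlapping and antisense genes may share reads. Groups came from the sample titles. Genes were kept by edgeR 4.0.16's filterByExpr (minimum count 10, minimum total 15), which left 16153 of 26253. All 24 libraries entered 1 quasi-likelihood fit of 4 group means with TMM scaling and 20 residual degrees of freedom, and p-values were adjusted over all genes by Benjamini-Hochberg. Log2 CPM used a prior count of 2. Standard errors were taken from the log2 fold change and the F statistic. The fit was tested on simulated data. Alternatives were DESeq2 1.42.0, limma-voom (limma 3.58.1), other scalings, filters and thresholds, the 2 groups alone, a replicate block and left-out libraries. Since fewer than 20 genes were called, the named genes were those of smallest p with a mean of at least 5 CPM, until 20 were named, passing over predicted models. From each list without a called member, the 2 most abundant members could be named. The comparison and the lists were chosen with earlier results of these data known. The values of 1 interferon list member are not reported here.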

Additional observations from a re-analysis of the deposited data

Results flagged for a closer look

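For each of the 20 named genes, the mean of each of the 56 lists and the share of counts of *Scgb1a1*, each group of 6 ozone libraries was searched for a library far from the other 5, where the gap to its nearest neighbour, over the whole range, passed Dixon's critical value. Of 154 groups looked at 10 had such a library, where chance gives about 5% of groups, a share near that found. The same libraries enter all groups, so the groups are not independent. *Atf5* had 150.8 CPM in control-diet library 1 and 110.2 to 123.6 in the other 5. *Npr3* had 65.05 CPM in DHA-diet library 2 and 79.24 to 82.67 in the other 5. *Tnfrsf12a* had 80.32 CPM in DHA-diet library 1 and 33.43 to 43.4 in the other 5.

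The other 7 were means of lists, in log2 CPM. Control-diet library 1 had 4.846 for mesothelial markers, with 6.184 to 6.393 in the other 5, and 5.409 for complement genes, with 5.864 to 6.049 in the other 5. Control-diet library 4 had 4.816 for cyclooxygenase and prostanoid genes, with 4.962 to 5.019 in the other 5. DHA-diet library 1 had 5.766 for matrix repair genes, with 5.164 to 5.335 in the other 5, and 1.219 for markers of natural killer and cytotoxic cells, with 1.8 to 1.971 in the other 5. DHA-diet library 2 had 7.453 for NRF2 and antioxidant genes, with 6.629 to 6.917 in the other 5, and 6.704 for endothelial markers, with 6.96 to 7.047 in the other 5.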

How the results depend on the processing

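At an adjusted p under 0.01 the count was 0 of necessity, since the smallest adjusted p was 0.0793. The count of 0 genes higher and 0 lower after ozone held with other scalings (RLE, library totals), with no filter on low counts and with a filter of 1 CPM. It was 38 and 37 with DESeq2, 8 and 11 with limma-voom, 1 and 1 with the 2 groups fitted alone, and 8 and 14 at an adjusted p under 0.10. Leaving out each ozone library in turn gave 0 to 71 higher and 0 to 73 lower. Without DHA-diet library 1 and control-diet library 1 together, a setting chosen after seeing the data, it was 1 and 1, with 1 interaction and 818 genes in air. The interaction count was 5 with DESeq2 and 2 with limma-voom. The count in air, 186, was 522 with DESeq2, 849 with limma-voom, 359 with the 2 groups alone, 635 at an adjusted p under 0.10, 20 under 0.01 and 747 without DHA-diet ozone libraries 1 and 2. It ran from 139 to 654 without each ozone library, the highest without DHA-diet library 1. The cause of these changes was not tested. With the replicate number as a block, 0 genes were called higher and 0 lower after ozone and 85 in air. The numbers share only a label: same-numbered ozone libraries had deviations correlated from -0.156 to 0.0861, 0 of 6 pairs above 0.1, and 0 libraries lay closest to their own number. Of 480 values of the 20 named genes under alternatives 0 changed sign. Of 330 counts of members for 15 of the 56 lists 74 moved by over 1.5 times, and 3 had a median of changed sign. The neutrophil markers had 1 member without DHA-diet libraries 1 and 2, at a median of -0.0739, and the mitosis genes had 0 without DHA-diet library 1 (-0.0321) and 0 without both (-0.0532). With single libraries or the 2 pairs left out, the median changed sign at least once in 4 of the 25 lists with a median of at least 0.1 in size and in 19 of the other 31. The 4 were neutrophil and mitosis genes, DNA replication (0.122, and -0.00135 without DHA-diet library 1) and mast cell, basophil and eosinophil markers (0.164, and -0.0375 without library 1 of both diets). With 6 libraries per group, differences near the median standard error of 0.0841 were not detectable, and much larger ones could also be missed. *Usp18* was not called in the main fit, while its log2 fold change without each ozone library in turn ran from -0.484 to -0.371. In the simulated data 38% of the 50 genes given the smallest change were recovered, and 94% of the 50 changed 2 times. The count of 0 therefore does not show that differences of such sizes were absent.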
